A study of Mus musculus with 6 samples.

Results

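The genes described here are 10 regulators and markers of the paraxial mesoderm that lie outside the Notch pathway: Tbx6, Msgn1, Rspo3, Meox1, Meox2, Tcf15, Pcdh8, Pax3, Tbx18 and Uncx. They were found by their gene symbols, and all 10 were present among the 24975 genes of the deposited count table. RNA was sequenced from 3 Gli3R libraries (Mesp1-Cre/+;R26-Gli3R-IRES-Venus/+) and 3 control libraries (Mesp1-Cre/+;R26-tdTomato/+) of mouse mesoderm at embryonic day 7.5. Gli3R is a truncated, repressing version of Gli3, a transcription factor of the Hedgehog pathway, and blocks the pathway's transcriptional output. The comparison asks which transcripts of the early mesoderm depend on Hedgehog signalling. All embryos carried 1 copy of Mesp1-Cre, so recombination in both groups was limited to cells with a history of Mesp1 expression. Per the file headers, Gli3R cells were sorted by Venus and control cells by tdTomato, so the genotype and the reporter used for sorting cannot be told apart. Each library held 1000 sorted cells from pooled littermates, and each of 3 litters gave 1 library of each group.

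Paraxial mesoderm lies on either side of the midline and is first unsegmented (presomitic) before it forms somites. The T-box factor Tbx6 and the basic helix-loop-helix factor Msgn1 act early, as cells leave the primitive streak, and WNT signals from the streak maintain them. Tcf15, Meox1, Meox2 and Pax3 act later, in the forming and formed somite, and Tbx18 and Uncx mark its anterior and posterior compartments.

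Library totals ran from 6592417 to 12635151 counts in Gli3R and from 5481190 to 10435790 in control. Mesoderm genes of the Mesp1 lineage (10 of 10 counted, among them Pdgfra, Kdr and Hand1) summed to 327 to 390 CPM (counts relative to library size, TMM-scaled) in Gli3R libraries and 308 to 346 CPM in control libraries, and were present in every library. Hand1 was the largest part of this sum, at 142 to 207 CPM in Gli3R libraries and 118 to 151 CPM in control libraries. Not all genes of the list were higher, and Snai1 averaged 6.97 CPM in Gli3R and 9.56 CPM in control. Gli3, part of which the transgene carries, had 39.0 to 50.9 CPM in Gli3R libraries and 25.8 to 34.4 CPM in control libraries. Control replicate 1, the shallowest library, stood apart on the first principal component. Fold changes of the 10 genes that rest on it are given with and without it. T, Cdx1 and the likeness of patterns are given with it only. Epiblast and streak markers summed to 51.0 to 55.7 CPM in Gli3R libraries and 68.7 to 191 CPM in control libraries, with all 10 counted, and control replicate 1 was the highest. The epiblast and streak sum is weighted to T, Pou5f1, Nanog and Epcam. Nanog overlapped, at 9.01 to 22.6 CPM in Gli3R libraries and 8.95 to 36.7 CPM in control libraries. Wnt3 had a higher mean in Gli3R, 2.83 CPM against 2.12 CPM in control. Lateral plate and extraembryonic markers summed to 710 to 980 CPM in Gli3R libraries and 501 to 650 CPM in control libraries. That sum is weighted to abundant genes such as Bmp4 and Hand1, and not all genes of the list were higher. Foxf1 had 9.40 to 12.6 CPM in Gli3R libraries and 16.1 to 18.3 CPM in control libraries. Tbx4 averaged 7.67 CPM in Gli3R and 9.86 CPM in control. Cardiac, blood and endothelial, and endoderm sums overlapped between the groups. In sorted pools, fewer cells of a type and less RNA per cell cannot be told apart. The part that these differences play in the values below was not tested.

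The upstream sequences of the presomitic pair are shown because the results below turn on Msgn1 and Tbx6, and because WNT input acts through TCF and LEF factors. Both are from RefSeq on GRCm38.p6, read in the direction of the gene; the counts were made on another build, mm9. Capitals mark matches to the TCF/LEF core CTTTGA on either strand. The Tbx6 stretch (chr7:126781233-126781482, plus strand) covers bases 250 to 1 before the annotated start. The Msgn1 stretch (chr12:11209049-11209198, minus strand) covers bases 250 to 101 before it; the last 100 bases are not shown, since the annotated start is the start codon itself.
Msgn1: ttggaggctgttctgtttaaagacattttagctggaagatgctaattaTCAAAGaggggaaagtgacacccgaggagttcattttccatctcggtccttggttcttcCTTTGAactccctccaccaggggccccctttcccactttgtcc
Tbx6: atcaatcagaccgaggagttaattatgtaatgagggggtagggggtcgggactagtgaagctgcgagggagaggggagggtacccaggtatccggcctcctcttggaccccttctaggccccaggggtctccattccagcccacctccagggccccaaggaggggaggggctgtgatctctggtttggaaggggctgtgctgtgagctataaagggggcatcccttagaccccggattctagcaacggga

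The Msgn1 window held 2 TCF/LEF cores, at bases 202 to 197 on the opposite strand and at bases 143 to 138 on the strand of the gene. The Tbx6 window held 0, as did the windows of Meox2, Pcdh8, Tbx18 and Uncx, the other members matched among the RefSeq promoters (6 of 10 in all). Across 32851 windows of 250 bases before annotated starts, 13.8% held at least 1 such core. The T-box half-site TCACAC, in 12.3% of all windows, and the Gli site GACCACCCA, in 0.225%, were searched on both strands and had 0 matches in the 6 windows. The E-box CANNTG, the site class of basic helix-loop-helix factors, was found in 66.2% of all windows and had 1 match each for Msgn1, Meox2 and Tbx18. None of these motifs overlapped a TCF/LEF core in these windows. A match is a stretch of letters, not a measured binding site.

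Levels between genes were compared per kilobase of exon. In control libraries Tcf15 was the most abundant member, at 38.8 ± 7.37 CPM per kilobase (SD, n = 3). Rspo3 followed at 23.8 ± 5.33 and Msgn1 at 17.9 ± 12.1 CPM per kilobase, with overlapping ranges. Meox1 (5.58 ± 1.996) and Tbx6 (4.16 ± 3.23) came next and overlapped each other. Pcdh8 (0.687 ± 0.179) and Pax3 (0.357 ± 0.181) were low, and Tbx18, Meox2 and Uncx were at most 0.0770 CPM per kilobase on average. The control ranges of Tcf15 and Rspo3, of Msgn1 and Meox1, and of Tbx6 and Pcdh8 did not overlap. In Gli3R libraries Tcf15 (27.5 ± 2.498) and Rspo3 (18.0 ± 2.03) were again the highest, while Msgn1 averaged 4.18 ± 3.72 CPM per kilobase, close to Meox1 at 3.03 ± 1.76. The early genes Tbx6 and Msgn1 and the late genes Tcf15 and Meox1 were thus present at this stage. Pax3 was low, and the late gene Meox2 was at the edge of detection, as were the compartment genes Tbx18 and Uncx.

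Of the 10 genes, 7 had enough counts to be tested and 0 passed in either direction, against 0.134% of the 11913 genes tested (edgeR quasi-likelihood test, threshold 0.05 on the Benjamini-Hochberg adjusted p). The DESeq2 Wald test on the same genes called 0 members as well. At an unadjusted p under 0.05, 5 members were lower and 1 was higher with Gli3R, where 3.29% of all tested genes were lower and 3.56% higher. Within litters, 6 members were lower with Gli3R in all 3 litters, against 15.3% of all tested genes. Pax3 was higher in all 3, as were 15% of all tested genes. The 7 had a median log2 fold change of -0.80, against -0.01 for all tested genes. Pcdh8 reached the count filter through its control libraries alone, so its place among the 7 depended on its level there. The other 6 reached the minimum in at least 2 libraries of each group.

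**Figure D1:**
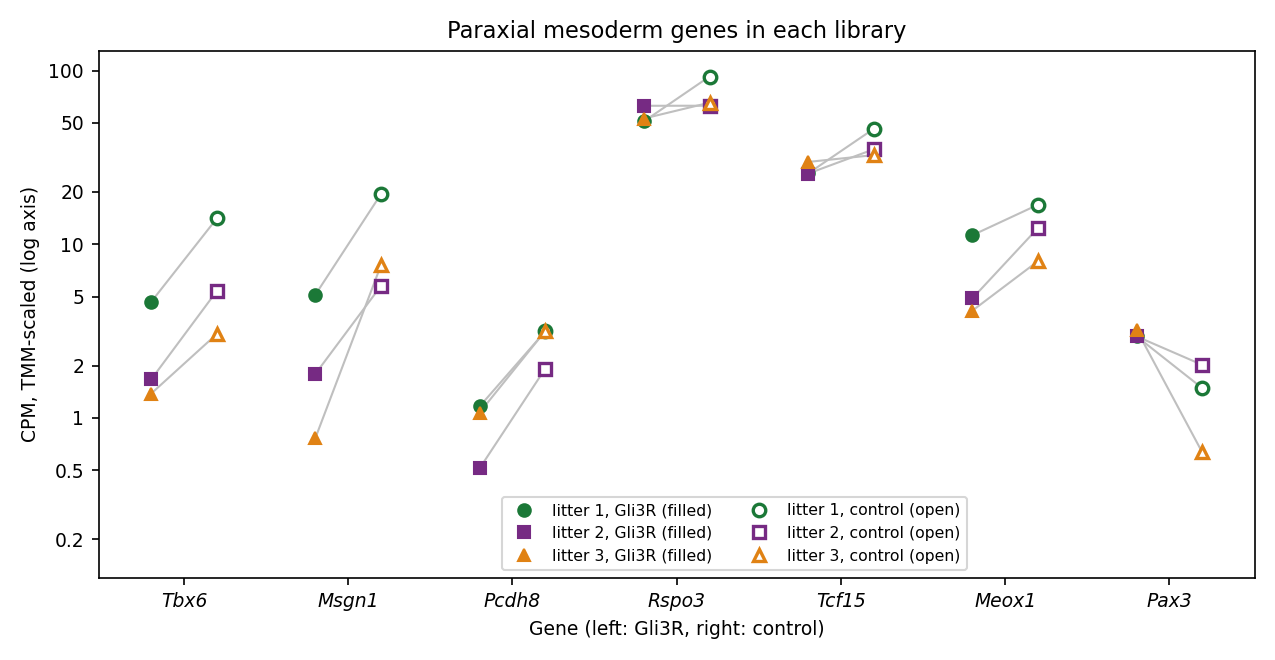
CPM (TMM-scaled, log axis) of the 7 tested genes in each library; Gli3R libraries are filled and on the left of each gene, control libraries are open and on the right, and grey lines join libraries of 1 litter. Tbx6, Msgn1 and Meox1 are highest in litter 1 in both groups, and the line of every litter is higher at the control end except for Pax3; for Rspo3 in litter 2 the 2 ends nearly coincide.

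Tbx6 (Entrez gene 21389), which in the mouse is required for presomitic cells to become mesoderm and not neural tissue, had 4.66, 1.67 and 1.38 CPM in Gli3R replicates 1, 2 and 3, against 14.1, 5.39 and 3.04 CPM in control replicates 1, 2 and 3. The Gli3R library of litter 1 lay above the control library of litter 3, so the groups overlapped, yet each Gli3R library was below the control library of its own litter. The reads behind these levels were 60, 13 and 9 in Gli3R and 76, 56 and 24 in control. The log2 fold change was -1.38 ± 0.59 (SE) and did not pass (edgeR quasi-likelihood test, adjusted p = 0.714). Without control replicate 1 it was -0.62 ± 0.49, and without both libraries of litter 1 it was -1.47 ± 0.43. Without Gli3R replicate 1 it was -2.22 ± 0.66, and none of the 3 passed.

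Msgn1 (56184), which drives the maturation of presomitic progenitors, had 5.13, 1.79 and 0.77 CPM in Gli3R replicates 1 to 3, against 19.5, 5.77 and 7.61 CPM in control replicates 1 to 3. All Gli3R libraries lay below all control libraries, as for 6.33% of all tested genes. The gap between groups was narrow, since Gli3R replicate 1 and control replicate 2 were close. Gli3R replicates 2 and 3 held 14 and 5 of its reads. Its log2 fold change of -1.91 ± 0.60 (SE) was the largest of the set and did not pass (edgeR quasi-likelihood test, adjusted p = 0.466). It was -1.23 ± 0.52 without control replicate 1 and -2.99 ± 0.65 without Gli3R replicate 1. The fit was also run on all 18719 genes with a count, without the filter on low counts. Msgn1 passed there at -1.88 ± 0.43 (edgeR quasi-likelihood test, adjusted p = 0.0336). That fit called 59 genes lower and 49 higher over the whole table, against 13 and 3 in the main fit.

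Pcdh8 (18530), a protocadherin of the presomitic mesoderm involved in cell movement and somite boundaries, was a rare transcript. It had 1.16, 0.51 and 1.07 CPM in Gli3R replicates 1 to 3, against 3.15, 1.92 and 3.17 CPM in control replicates 1 to 3. The groups did not overlap, as for 6.33% of all tested genes with Gli3R lower. Since Pcdh8 reached the count filter through its control libraries alone, a lower level in Gli3R was favoured in advance. The 6 values rested on 26 reads in Gli3R and 62 in control. The log2 fold change was -1.51 ± 0.41 (SE; edgeR quasi-likelihood test, adjusted p = 0.350), and it changed little without control replicate 1, at -1.40 ± 0.47. In the reference annotation its exons share 436 bases with a gene on the opposite strand, so part of its reads could be assigned to either if strand was not used in counting.

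**Figure D2:**
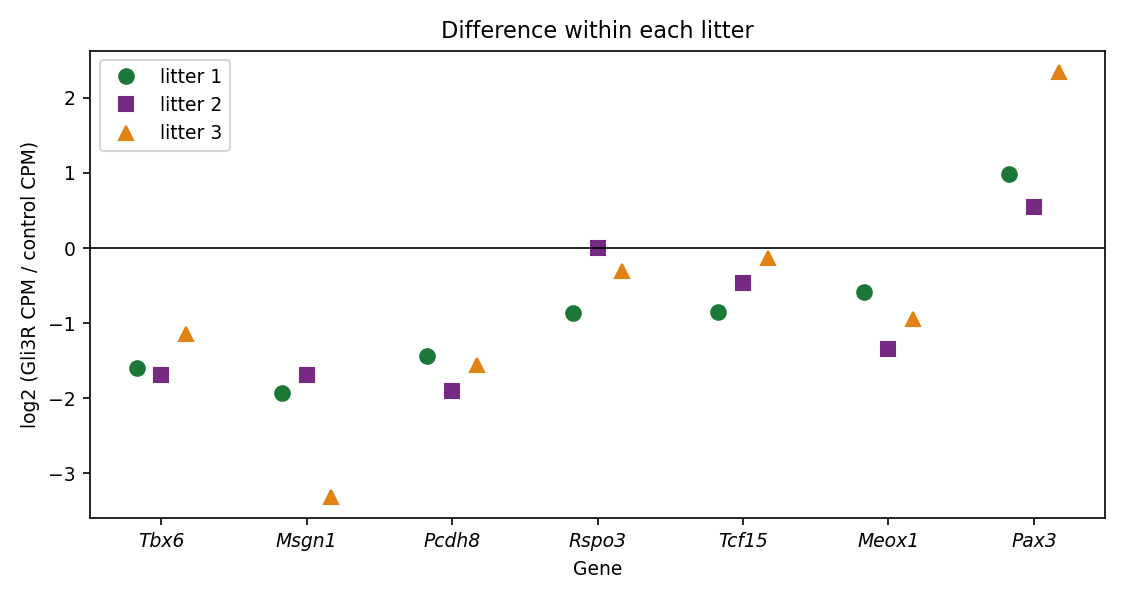
log2 ratio of Gli3R CPM to control CPM within each litter for the 7 tested genes; each point is 1 litter and the line at 0 marks equal levels. Tbx6, Msgn1, Pcdh8 and Meox1 lie below 0 in all 3 litters, from -0.58 to -3.31, Rspo3 and Tcf15 lie between -0.86 and -0.001, and Pax3 lies above 0.

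The log2 ratios of Gli3R to control in litters 1, 2 and 3 were -1.60, -1.69 and -1.14 for Tbx6. For Msgn1 they were -1.93, -1.69 and -3.31, and for Pcdh8 -1.44, -1.91 and -1.56. Tbx6 and Pcdh8 thus differed by a similar amount in each litter, whereas Msgn1 was lowest in litter 3, where its Gli3R library had 5 reads. The ratios were -0.58, -1.35 and -0.95 for Meox1 and -0.85, -0.47 and -0.13 for Tcf15. With litter as a block, the standard error was smaller for Tbx6 (-1.52 ± 0.25) and Msgn1 (-2.12 ± 0.30). Neither passed there (edgeR quasi-likelihood test with litter block, adjusted p = 0.0764 and 0.0502), where 0.151% of all tested genes were lower and 0.0755% higher. The block called 27 genes over the whole table, or 0.227%, against 16 without it, and 0 of them were members; at an unadjusted p under 0.05 it counted 6 lower and 1 higher member, against 3.9% and 4.83% of all tested genes.

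Rspo3 (72780), a secreted protein that strengthens WNT signalling, had 50.9, 62.7 and 52.9 CPM in Gli3R replicates 1 to 3, against 92.4, 62.7 and 65.3 CPM in control replicates 1 to 3. Control replicate 1 was the high library, and in litter 2 the levels were nearly equal, with a log2 ratio of -0.001. The log2 fold change was -0.40 ± 0.16 (SE; edgeR quasi-likelihood test, adjusted p = 0.678), at -0.20 ± 0.12 without control replicate 1. In the annotation 404 bases of its exons are shared with a gene on the opposite strand.

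Tcf15 (21407), the paraxis gene needed for somites to become epithelial, had 25.6, 25.5 and 29.8 CPM in Gli3R replicates 1 to 3, against 46.2, 35.2 and 32.6 CPM in control replicates 1 to 3. All Gli3R libraries were below all control libraries, as for 6.33% of all tested genes, but by little in litter 3. With 722 reads in Gli3R and 872 in control it was measured with a small error, and its log2 fold change was -0.49 ± 0.15 (SE; edgeR quasi-likelihood test, adjusted p = 0.459). Without control replicate 1 it was -0.33 ± 0.13. Its ratio to Rspo3 in reads stayed between 0.407 and 0.562 in Gli3R and between 0.499 and 0.561 in control.

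Meox1 (17285), a homeobox gene of the somite, had 11.3, 4.87 and 4.14 CPM in Gli3R replicates 1 to 3, against 16.9, 12.4 and 7.99 CPM in control replicates 1 to 3. As for Tbx6, litter 1 was the highest in both groups and the groups overlapped. The log2 fold change was -0.80 ± 0.39 (SE; edgeR quasi-likelihood test, adjusted p = 0.763); it was -0.54 ± 0.39 without control replicate 1 and -1.44 ± 0.34 without Gli3R replicate 1. With litter as a block it was -0.93 ± 0.21 (adjusted p = 0.171, edgeR quasi-likelihood test). Its paralog Meox2 (17286) had 5 reads in the Gli3R libraries together and 3 in control, a ratio of 1.45 for which the 95% exact counting interval was 0.282 to 9.34. A difference in Meox2 was not detectable at this depth.

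Pax3 (18505), a paired-box gene of the somite that is also used by the dorsal neural tube and neural crest, was the tested member with a higher level in Gli3R libraries. It had 2.95, 2.95 and 3.22 CPM in Gli3R replicates 1 to 3, against 1.48, 2.02 and 0.63 CPM in control replicates 1 to 3. All Gli3R libraries were above all control libraries, as for 5.62% of all tested genes, on 82 reads in Gli3R and 34 in control. The log2 fold change was 1.10 ± 0.39 (SE) and did not pass (edgeR quasi-likelihood test, adjusted p = 0.578); it was 0.75 ± 0.36 without control replicate 3 and 1.58 ± 0.46 without control replicate 2. Of 10 neural plate and neural crest markers, 9 had a count and Sox1 was at 0. Their summed level was 13.5 to 18.5 CPM in Gli3R libraries and 14.1 to 16.0 CPM in control libraries, most of it from Otx2, and Sox10, Foxd3, Pax7 and Tfap2a had at most 2 reads each over all libraries. Pax6 had 10 reads in Gli3R and 2 in control, a ratio of 4.35 with an exact 95% counting interval of 0.927 to 40.8. Pax6 was not higher in every litter, since it had 0 reads in Gli3R replicate 2 and 1 in control replicate 2. Sox2 had 9 reads in Gli3R and 12 in control, and Zic1 had 0 and 2. The log2 fold change was -0.24 ± 0.36 (SE) for Nes and 0.12 ± 0.21 for Otx2. The part of neural plate and neural crest cells in the Pax3 values was not tested.

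The genes of the somite compartments were nearly absent. Tbx18 (76365), of the anterior compartment, had 4 reads in Gli3R, all in replicate 2, and 9 in control, 2 in replicate 2 and 7 in replicate 3. In the annotation its exons share 931 bases with a gene on the opposite strand. Uncx (22255), of the posterior compartment, had 1 read in Gli3R and 2 in control. The ratios of Gli3R to control reads, 0.387 for Tbx18 (95% exact interval 0.0870 to 1.39) and 0.435 for Uncx (0.00738 to 8.36), leave the direction undetermined.

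**Figure D3:**
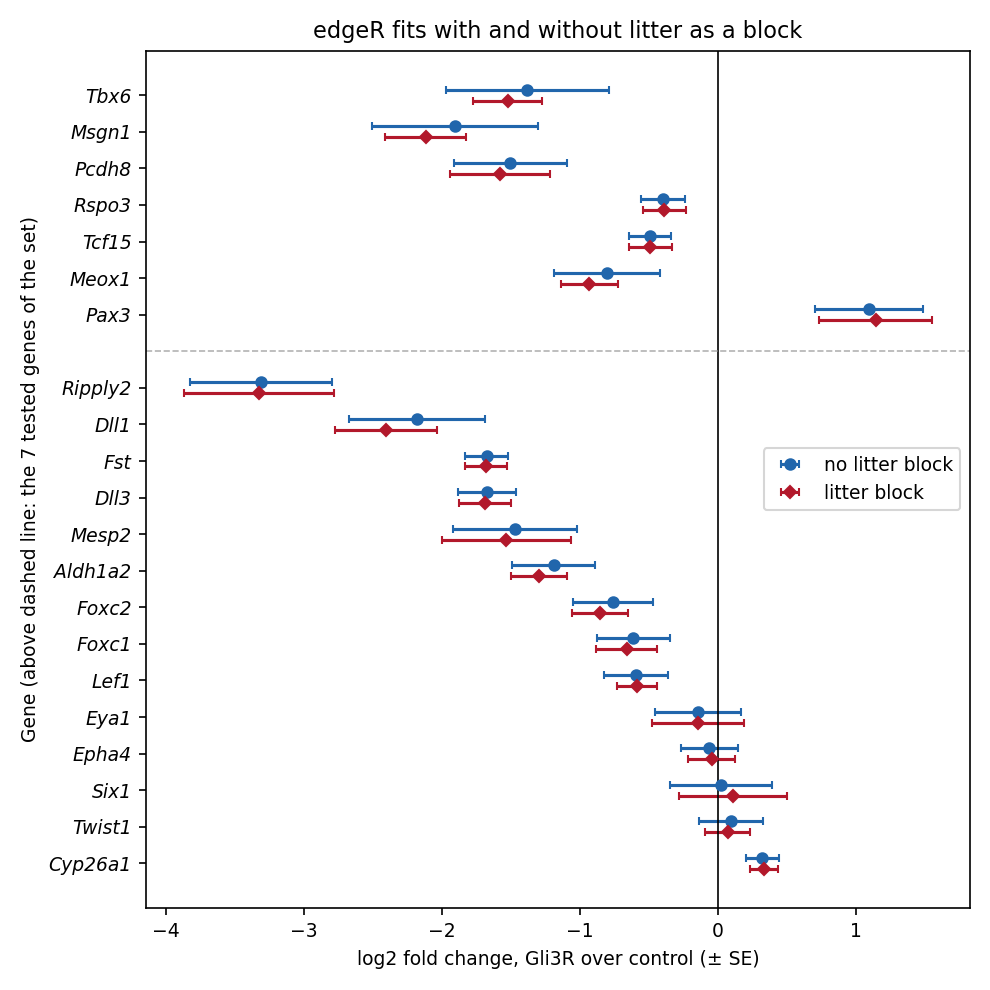
log2 fold change, Gli3R over control, with its SE from the edgeR fits without (circles) and with (diamonds) litter as a block; the 7 tested genes of the set are above the dashed line, and the 14 tested genes of a list of other paraxial and somite genes below it. Error bars of Tbx6, Msgn1, Dll1 and Meox1 are shorter with the block, and Fst and Dll3 are the genes that passed.

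The other genes of the paraxial programme were read from a list of 24, of which 14 were tested. Of these, Fst and Dll3 fell and 0 rose (edgeR quasi-likelihood test, adjusted p = 0.00450 and 0.0234), where 0.109% of all tested genes were lower and 0.0252% higher. Their log2 fold changes were -1.68 ± 0.16 for Fst, which encodes the activin antagonist follistatin, and -1.67 ± 0.21 for the Notch ligand gene Dll3. Ripply2, a repressor that ends the presomitic programme at the somite boundary, and the Notch ligand gene Dll1 had the next smallest p-values, at -3.31 ± 0.51 and -2.18 ± 0.50 (edgeR quasi-likelihood test, adjusted p = 0.0506 and 0.211). The Ripply2 call turned on the method: it passed with library size alone (edgeR quasi-likelihood test, adjusted p = 0.0470), without the low-count filter (8.62e-05) and in the DESeq2 Wald test (9.29e-09). Dll1 passed without the low-count filter (edgeR quasi-likelihood test, adjusted p = 0.00213) and without both libraries of litter 1 (0.0201). The median log2 fold change of the 14 was -0.69. Ripply2 had 0.78, 1.41 and 0 CPM in Gli3R replicates 1 to 3, and Mesp2 had 2.95, 1.03 and 1.07 CPM. Both reached the count filter through their control libraries, so a lower level in Gli3R was favoured in advance for them. Both are part of this median. The count of 2 was 1 without Gli3R replicate 2 or control replicate 2, and 0 without Gli3R replicate 3. Of the 10 that were not tested, the somite genes Pax1 and Myf5 had 0 reads, and Pax7, Pax9, Nkx3-2 and Ripply1 had between 1 and 8 reads over the 6 libraries. Wnt3a, a WNT ligand of the streak and tail bud, had 0 reads in Gli3R and 29 in control. The remaining untested genes also had fewer reads in total in Gli3R than in control. Hes7 had 4 and 39, Lfng 14 and 25, and Sim1 5 and 16. Lfng and Sim1 overlapped between the groups, and Lfng was higher with Gli3R in litter 1 (log2 ratio 1.33).

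**Figure D4:**
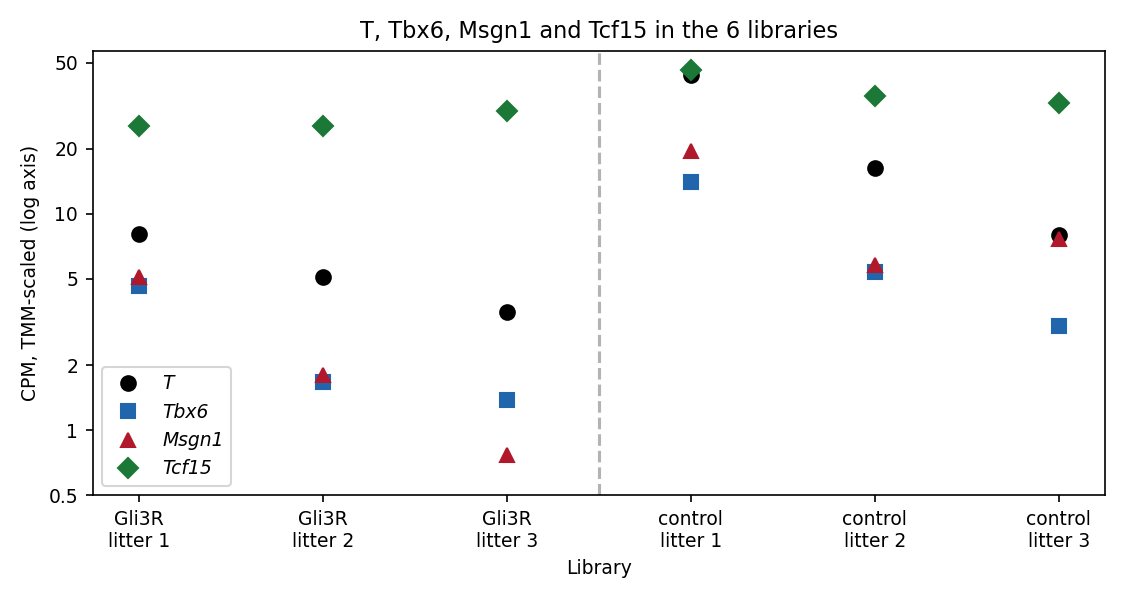
CPM (TMM-scaled, log axis) of T, Tbx6, Msgn1 and Tcf15 in the 6 libraries, Gli3R left of the dashed line and control right of it. T and Tbx6 are highest in litter 1 and lowest in litter 3 in both groups, while Tcf15 stays between 25.5 and 46.2 CPM.

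Tbx6 and T, the Brachyury gene of the primitive streak, ranked the libraries of each group alike, with litter 1 highest and litter 3 lowest. Meox1 and Lef1 had the same order in both groups, so it was not particular to Tbx6 and T. T had 8.08, 5.13 and 3.53 CPM in Gli3R replicates 1 to 3, against 43.6, 16.4 and 7.99 CPM in control replicates 1 to 3. The log2 fold change of T was -1.93 ± 0.55 (SE) and did not pass (edgeR quasi-likelihood test, adjusted p = 0.402). With litter as a block it was -1.89 ± 0.24 and passed (edgeR quasi-likelihood test with litter block, adjusted p = 0.0373). The ratio of Tbx6 to T reads was 0.577, 0.325 and 0.391 in Gli3R replicates 1 to 3, against 0.323, 0.329 and 0.381 in control replicates 1 to 3. Msgn1 kept a less even ratio to T, at 0.635, 0.350 and 0.217 in Gli3R replicates 1 to 3, against 0.447, 0.353 and 0.952 in control replicates 1 to 3. The ratio of Tbx6 to Tcf15 reads was 0.182, 0.0653 and 0.0464 in Gli3R replicates 1 to 3, against 0.305, 0.153 and 0.0934 in control replicates 1 to 3, so it was lower with Gli3R within every litter and also differed between litters. The ratio of Meox1 to Tcf15 reads was 0.441, 0.191 and 0.139 in Gli3R replicates 1 to 3, against 0.365, 0.352 and 0.245 in control replicates 1 to 3.

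Likeness of pattern was measured as the root mean square distance between centred log2 CPM values over the 6 libraries, among 9335 other genes of at least 5 CPM on average. The genes nearest to Tbx6 were Cdx1, T and Sh3gl3, at 0.27, 0.29 and 0.30, against a median distance of 1.06 for all. Msgn1 was nearest to Cdx1, Sh3gl3 and Fabp7, at 0.45, 0.48 and 0.57 (median 1.38). Meox1 was nearest to Prom1, Smoc1 and Aldh1a2, the last a retinoic acid synthesis gene of the paraxial mesoderm, at 0.21, 0.26 and 0.28 (median 0.72). Rspo3 was nearest to Zscan12, Tchp and Wnt5b, at 0.08 each (median 0.31). Cdx1, a caudal homeobox gene of the posterior embryo, had 23.1, 6.02 and 5.06 CPM in Gli3R replicates 1 to 3, against 47.3, 19.7 and 16.9 CPM in control replicates 1 to 3. Both Cdx1 and Sh3gl3 are shared by the early pair. These distances are descriptions over 6 libraries.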

How the data were processed

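The authors deposited raw counts per gene, 1 column per library. Per the submitters' processing notes, the build was mm9 and the tools included featureCounts, Subread 1.4.6 and TopHat2 2.0.14; annotation, strand setting and multiply matching reads: not given in the sources used here. SMARTer Ultra Low cDNA went into Nextera XT libraries, per the labels' protocols; without molecular identifiers, amplified copies count as reads, so intervals cover counting error only.

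Counts were analysed in R 4.3.3 with edgeR 4.0.16: filterByExpr (minimum count 10), scaling by trimmed mean of M-values (TMM) and the two-sided quasi-likelihood test, Benjamini-Hochberg adjusted over 11913 genes. The code was tested on simulated counts. Named are all 10 members, the list genes that passed or had the 4 smallest p-values, the 3 genes nearest in pattern, and T, Cdx1 and other genes on which a result turned. The members, lists and motifs were chosen with earlier results of these data known. Exon lengths and overlaps are from GENCODE M21 (GRCm38), matched by symbol for 10 of 10 members. The 27 symbols turned into dates were restored by Entrez gene ID.

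The labels tie the replicate number to a litter, so the numbers pair the libraries; libraries of litters 1, 2 and 3 deviated from their group means with correlations of 0.168, 0.187 and 0.0755, against -0.269 to 0.162 across litters, so the pairing rests on the labels and shows weakly in the data. The litters are separate pools of embryos, and p-values reflect variation among those pools. Alternatives were the litter block, 2 other scalings, DESeq2 1.42.0, 2 other filters, and leaving out each library or litter. A single read weighed 0.0777 to 0.186 CPM, and a count of 0 allows up to 3 reads, or 0.233 to 0.557 CPM.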

Additional observations from a re-analysis of the deposited data

How the results depend on the processing

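Over 15 alternatives, the 7 tested members gave 102 fold changes, of which 0 changed sign and 1 passed where it had not before (Msgn1 without the filter on low counts, giving 1 lower member in place of 0). Pcdh8, Pax3 and Tbx6 have too few counts for the filter of 5 CPM in 3 libraries. Over all tested genes, 13 were lower and 3 higher: 18 and 9 with the replicate block, 14 and 5 with library size alone, 59 and 49 without the filter, 12 and 1 with at least 5 CPM in 3 libraries, and 51 and 43 with DESeq2. Leaving out 1 library or 1 litter gave 0 to 22 lower and 0 to 5 higher. Of the other paraxial genes, 2 were lower; the count was 6 without the filter, 3 with library size alone or DESeq2 (Ripply2 added), and 0 to 4 with a library or litter left out. Fits with a library or litter left out also had fewer libraries, and the cause of these changes was not tested. The replicate block changed no call of a member or of the other paraxial genes. Depth limits Meox2, Tbx18 and Uncx.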
